A study of Mus musculus with 8 samples.

Results

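The genes described are 9 transcription factors of the monocyte and macrophage lineage: Maf, Spic, Spi1, Cebpa, Cebpb, Cebpd, Nr4a1, Pou2f2 and Klf2. They were chosen by name, with earlier results of these data known. Each was read from the brightest probe set whose platform annotation names that gene alone, which found 9 of 9 members among 19938 genes. Each of the 9 had a single such probe set. Bone marrow of femur and tibia gave sorted cells labelled myeloid dendritic cells (4 arrays), and the spleens of the same 4 mice gave sorted cells labelled classical dendritic cells (4 arrays), all on the Affymetrix mogene 1.0 ST platform. All 4 mice were 8 weeks old and of genotype CX3CR1-gfp/+, in which 1 allele of the fractalkine receptor gene carries green fluorescent protein, so every array of both tissues carries that allele. The labels name no treatment, and labelling started from 100 pg to 2 ng of RNA. Which surface markers defined each sorted population, and whether the reporter was used, is unstated in the sources used here. Values are intensities on a linear scale, fold changes are bone marrow over spleen, and a gene is said to have risen or fallen where limma's p-value, adjusted by Benjamini-Hochberg over all 19938 genes, is under 0.05.

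Transcription factors of this group act together to set a myeloid cell's identity. PU.1, the product of Spi1, opens enhancers throughout the myeloid lineage and is needed by dendritic cells and macrophages alike. C/EBP factors, which are basic leucine zipper proteins, act with PU.1 to drive granulocyte and monocyte genes, whereas Maf acts in mature macrophages, where it restrains self-renewal. Spi-C is a relative of PU.1 that red pulp and marrow macrophages need for recycling iron from red cells. Nr4a1 and C/EBP beta are required in mice for the non-classical, patrolling type of monocyte. Klf2 is a zinc finger factor that keeps monocytes and lymphocytes quiet and controls their trafficking, and Pou2f2 encodes Oct-2, an octamer-binding factor best known from B cells and also present in monocytes.

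In bone marrow 7 of the 9 genes rose and none fell, while Spi1 and Nr4a1 did not pass. Over all genes 9.26% rose and 9.2% fell in bone marrow by the same rule, and 18.5% passed in either direction. As the 9 genes were chosen with earlier results of these data known, these shares give no test of an excess. All 7 that rose also had 4 bone marrow arrays above all 4 spleen arrays, which held for 10.4% of all genes. The median log2 fold change of the 9 genes was 0.63, against -0.01 over all genes. In order of fold they were Maf (4.22-fold), Spic (2.14-fold), Cebpa (1.81-fold), Pou2f2 (1.56-fold), Cebpd (1.55-fold), Klf2 (1.49-fold), Cebpb (1.4-fold), Nr4a1 and Spi1. Neighbours from Pou2f2 to Cebpb in this order lay within each other's 95% intervals.

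**Figure D1:**
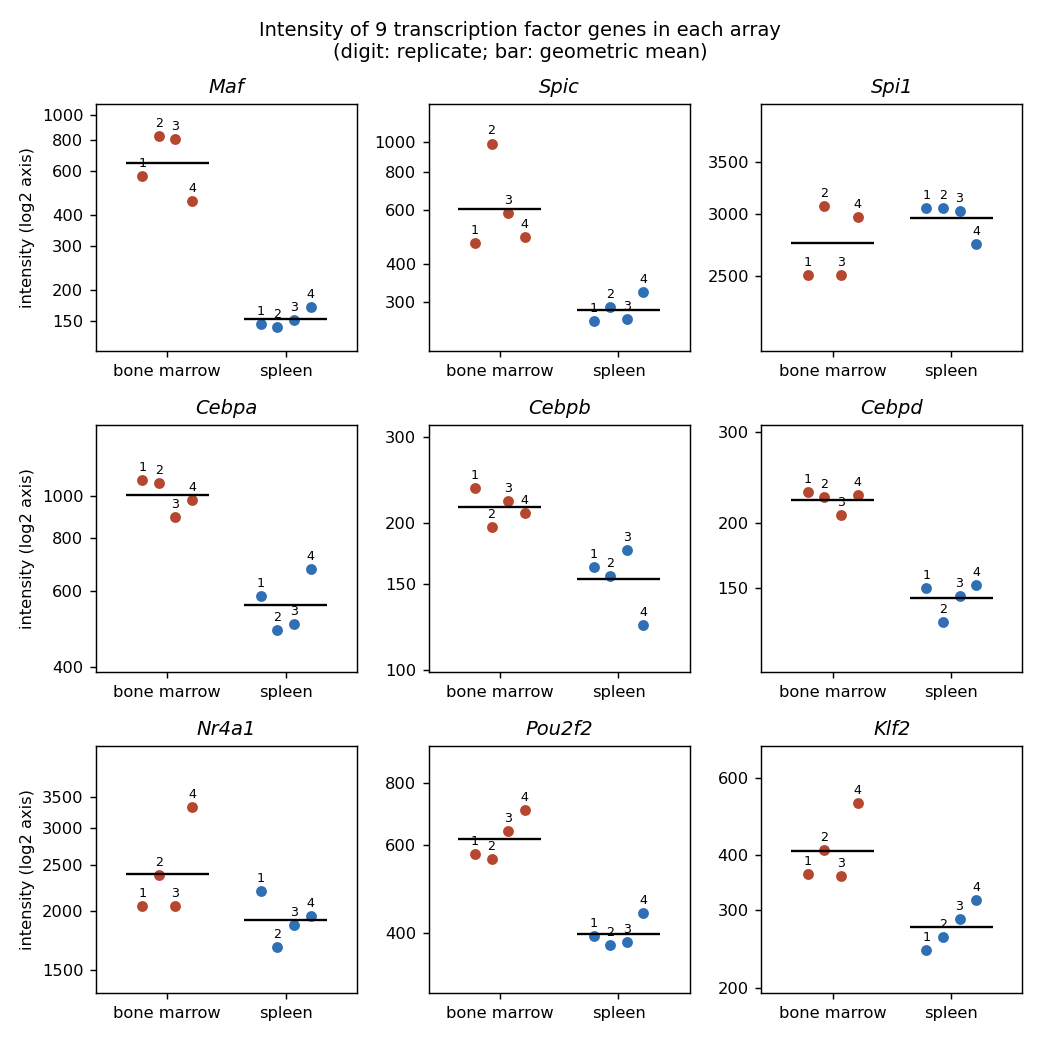
Intensity of each of the 9 genes (log2-spaced axis) in 4 bone marrow arrays (red, left) and 4 spleen arrays (blue, right), with the replicate number above each point and the geometric mean as a bar. Spi1 and Nr4a1 are the 2 genes whose groups overlap, and bone marrow replicate 2 stands highest for Spic while bone marrow replicate 4 stands highest for Nr4a1 and Klf2.

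Markers of other cell types differed between the same arrays, and these values stand beside every result below. Of 14 measured neutrophil genes 13 rose in bone marrow, with a summed intensity of 24409 to 32558 in bone marrow arrays and 2508 to 3380 in spleen arrays. Of 11 classical monocyte genes 9 rose and 1 fell (summed intensity 16603 to 18730 in bone marrow, 7474 to 8256 in spleen), and of 14 non-classical monocyte genes 12 rose and none fell (32232 to 40607 in bone marrow, 13415 to 15797 in spleen). Of 10 B cell genes 2 rose and 6 fell (1916 to 2005 in bone marrow, 3623 to 4131 in spleen), of 9 T and NK cell genes none rose and 5 fell (1352 to 1821 in bone marrow, 3179 to 3512 in spleen), and of 6 plasmacytoid dendritic cell genes 1 rose and 3 fell (3452 to 4558 in bone marrow, 2955 to 3472 in spleen). Among the genes behind these counts, given as log2 fold changes, Mmp8 (3.61) is counted with both classical monocytes and neutrophils. S100a4 (-0.73) is counted with classical monocytes, S100a8 (4.66) with neutrophils and Blk (-0.87) with B cells. Of the 11 classical monocyte genes 4 also stand in another of the lists, so the counts share genes. Cd5 and Klrd1, of T and NK cells, had -1.81 and -1.46, and Cd3g fell with intensities of 51.1 to 87.2 in bone marrow and 89.2 to 211 in spleen. A few bright genes weigh most in the spleen sums of these lists. Spleen geometric means were 1818 for Klrd1 and 600 for Cd5, with Cd3e next at 206. Among B cell genes Cd22 had 1933 in spleen, with Cd79b next at 480 and Ms4a1 at 315. The sums are therefore no measure of B, T or NK cells. Bst2, Ccr9 and Siglech, of plasmacytoid dendritic cells, had log2 fold changes of 0.78, -1.45 and -0.34. Their summed intensity rests mainly on Bst2 and Tcf4, with geometric means of 2536 and 916 in bone marrow and 1478 and 800 in spleen. Siglech, Ccr9, Ly6d and Spib had geometric means of 84.2 to 173 in bone marrow and 159 to 335 in spleen. The Siglech call was lost with median centring (limma adjusted p = 0.053) and on leaving out bone marrow array 1, 2 or 3 or spleen array 3 or 4 (limma adjusted p between 0.065 and 0.081). Of 11 measured genes of classical dendritic cells, 5 fell in bone marrow, none rose and 6 did not pass. Those 6 were Clec9a, Batf3, Sirpa, Irf4, H2-Ab1 and Cd74, with log2 fold changes of 0.11, -0.07, 0.17, -0.09, 0.065 and 0.04. Clec9a had intensities of 1033 to 1239 in bone marrow and 868 to 1355 in spleen, and Batf3 had 1575 to 1769 and 1522 to 1949. Xcr1, the chemokine receptor of cDC1 cells, fell most, with intensities of 108, 172, 119 and 179 in bone marrow replicates 1 to 4, near the array medians, against 1559, 1651, 976 and 2481 in spleen replicates 1 to 4 (log2 fold change -3.49 ± 0.24 SE, limma adjusted p = 3.4e-07). Ccr7, the receptor of migrating dendritic cells, had 206 to 246 in bone marrow and 827 to 997 in spleen, and Flt3, a receptor that dendritic cells depend on, had 1615 to 2407 in bone marrow and 3421 to 4433 in spleen. Itgax, which encodes CD11c, had intensities of 6003 to 6686 in bone marrow and 7749 to 8773 in spleen, and H2-Ab1, a class II chain, had 14739 to 16414 in bone marrow and 14451 to 15059.7 in spleen. Zbtb46, the transcription factor that marks classical dendritic cells, fell (182 to 238 in bone marrow, 425 to 586 in spleen). No marker of these lists was listed at 0, and without a detection call it is unknown which lay above background. The part of these cells in the results was not tested, and on a sorted population fewer cells of a type and less RNA per cell cannot be told apart.

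Maf, the large Maf factor of mature macrophages, showed the largest fold of the 9 genes. Maf intensities reached 574, 826, 804 and 455 in bone marrow replicates 1 to 4, against 146, 143, 153 and 172 in spleen replicates 1 to 4. Every bone marrow array lay far above every spleen array, and the groups did not overlap. The geometric mean was 646 in bone marrow and 153 in spleen, a 4.22-fold rise (log2 fold change 2.08 ± 0.16 SE, 4 arrays per tissue, limma adjusted p = 1.2e-06). Bone marrow arrays spread more widely than spleen arrays, with an SD of 0.41 in bone marrow and 0.12 in spleen on the log2 scale. Of 5 other Maf family genes measured, 1 rose, 1 fell and 3 did not pass. Mafg, a small Maf protein that lacks an activation domain, rose with intensities of 498 to 648 in bone marrow and 423 to 483 in spleen (0.36 ± 0.10 on the log2 scale, limma adjusted p = 0.017). That call was lost with quantile normalization (limma adjusted p = 0.053) and on leaving out bone marrow array 1, bone marrow array 3 or spleen array 2 (limma adjusted p between 0.057 and 0.06). Maff, an inducible small Maf, fell (126 to 162 in bone marrow, 184 to 216 in spleen, -0.44 ± 0.09 on the log2 scale, limma adjusted p = 0.0043). Mafk, Mafa and Nrl had log2 fold changes of 0.01, -0.07 and -0.02.

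Among 12 macrophage genes that are commonly linked to Maf, 9 rose in bone marrow, none fell and 3 did not pass, with a median log2 fold change of 3.06 against -0.01 over all genes. F13a1, which encodes a chain of the clotting factor XIII, had a geometric mean of 1314 in bone marrow and 84.7 in spleen (3.96 ± 0.19 SE on the log2 scale, limma adjusted p = 1.6e-08). Mrc1, the mannose receptor, and Axl, a receptor of dying cells, had log2 fold changes of 3.77 and 3.67. Those that did not pass were Il10, Folr2 and Gas6, with log2 fold changes of 0.00, 0.36 and 0.44. Il10 was dim in all 8 arrays, at 18.1 to 26.3 in bone marrow and 18.9 to 24.0 in spleen, against array medians of 125 to 135. Its fold therefore says little about expression. Folr2 had geometric means of 105 in bone marrow and 81.4 in spleen. Gas6 passed with the mouse as a replicate block (limma adjusted p = 0.033), without bone marrow replicate 4 (0.026), with array weights (0.047) and with the dimmest genes left out (0.044), and Folr2 passed without bone marrow replicate 4 (0.0054). The 3 genes whose profile over the 8 arrays lay closest to that of Maf were Rab3il1, Plxna1 and Slc16a10. Their log2 values, centred on the mean of the 8 arrays, differed from those of Maf by a root mean square of 0.14, 0.17 and 0.17. These values hold the tissue difference, so the closest genes share it by the way they were picked. Geometric means in bone marrow, and then in spleen, were 850 and 183 for Rab3il1, 905 and 222 for Plxna1, and 479 and 107 for Slc16a10.

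Spic rose 2.14-fold in bone marrow, with intensities of 468, 989, 587 and 488 in bone marrow replicates 1 to 4, against 259, 289, 263 and 322 in spleen replicates 1 to 4 (log2 fold change 1.10 ± 0.19 SE, 4 arrays per tissue, limma adjusted p = 0.0011). Bone marrow replicate 2 stood well above the other bone marrow arrays, and the groups did not overlap. Without that array the log2 fold change was 0.86 (limma adjusted p = 0.00015). Of 11 measured genes of heme and iron handling macrophages, 9 rose, none fell and 2 did not pass, with a median log2 fold change of 1.20. Slc40a1, the iron exporter ferroportin, had intensities of 216, 1421, 481 and 184 in bone marrow replicates 1 to 4, against 129.9, 87.6, 120.4 and 75.9 in spleen replicates 1 to 4. Its fold depended on bone marrow replicate 2, since the log2 fold change was 2.01 ± 0.49 (limma adjusted p = 0.011) with all arrays and 1.41 without that array (limma adjusted p = 0.0042). Hmox1, the heme oxygenase, had 1002 to 2375 in bone marrow and 219 to 518 in spleen (2.23 ± 0.26, limma adjusted p = 4.3e-05). Siglec1, the sialoadhesin of resident macrophages, had 1324 to 1860.5 in bone marrow and 125 to 136 in spleen, a log2 fold change of 3.60. Vcam1, an adhesion molecule for which macrophages of red pulp and marrow are known, had 464, 2128, 599 and 265 in bone marrow replicates 1 to 4, against 309, 249, 258 and 283 in spleen replicates 1 to 4 (1.20 ± 0.45, limma adjusted p = 0.093). The Vcam1 groups overlapped, and without bone marrow replicate 2 the log2 fold change was 0.61 (limma adjusted p = 0.075). The gene passed only with the replicate block (limma adjusted p = 0.047) and without bone marrow replicate 4 (limma adjusted p = 0.012) among the alternatives run.

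PU.1 itself did not pass. Spi1 had intensities of 2508, 3073, 2508 and 2970.4 in bone marrow replicates 1 to 4, against 3054, 3057, 3027 and 2744 in spleen replicates 1 to 4, with overlapping groups. Its log2 fold change was -0.11 ± 0.09 SE (4 arrays per tissue, limma adjusted p = 0.55), and the 95% interval of the difference ran from -0.30 to 0.09. Spib, the relative of PU.1 that plasmacytoid dendritic cells and B cells use, fell 2.53-fold, with 152, 127, 116 and 138 in bone marrow replicates 1 to 4, against 274, 326, 325 and 435 in spleen replicates 1 to 4 (-1.34 ± 0.13, limma adjusted p = 7.8e-06). Within the family, then, Spic rose and Spib fell. Ratios of 2 genes within an array were compared between the tissues for 8 pairs, since the ratio's own level has no meaning between probe sets. The log2 ratio of Spi1 to Spib was higher in every bone marrow array than in any spleen array (difference 1.23, exact two-sided permutation p = 0.029, 0.076 adjusted over 8 pairs). That of Spi1 to Spic was lower in every bone marrow array than in any spleen array (difference -1.20, exact permutation p = 0.029, adjusted p = 0.076). The value of 0.029 is the smallest p that 4 arrays against 4 allow, and no pair of the 8 passed after adjustment. This permutation did not pair the arrays by mouse, and with mice paired the smallest exact p is 0.125. The genes closest to Spi1 in profile over the 8 arrays were Csl, Fh1 and Ccdc6 (root mean square differences of 0.03, 0.04 and 0.04). None passed, which follows from the way they were picked, since the profile holds the tissue difference. Csl was dim, with geometric means of 84.3 in bone marrow and 91.2 in spleen, under the array medians.

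Of 16 measured genes commonly linked to PU.1, 11 rose, none fell and 5 did not pass, with a median log2 fold change of 1.10. Fcgr1 and Fcgr3, which encode activating receptors of immunoglobulin G, had log2 fold changes of 3.28 and 2.94, and Cd14, a co-receptor of bacterial lipopolysaccharide, had 2.23. Csf1r, whose product is the receptor for M-CSF, had intensities of 6043 to 6639 in bone marrow and 2211 to 2993 in spleen (1.28 ± 0.10 SE, limma adjusted p = 1.5e-06). Csf2rb, Ncf1, Ncf4, Cyba and Btk, which encode a cytokine receptor chain, parts of the phagocyte oxidase and a kinase, had log2 fold changes of -0.01, 0.08, -0.01, 0.11 and 0.12.

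All C/EBP genes measured rose in bone marrow, each by less than 2-fold. Cebpa, the factor needed for granulocyte and monocyte progenitors, had intensities of 1088, 1073, 896 and 982 in bone marrow replicates 1 to 4, against 584, 486, 503 and 677 in spleen replicates 1 to 4. It rose 1.81-fold (log2 fold change 0.85 ± 0.11 SE, 4 arrays per tissue, limma adjusted p = 0.0001), and every bone marrow array lay above every spleen array. Cebpb, the factor of emergency granulopoiesis and of non-classical monocytes, had 235, 196, 222 and 209 in bone marrow replicates 1 to 4, against 162, 156, 176 and 124 in spleen replicates 1 to 4. It rose 1.4-fold (0.49 ± 0.11, limma adjusted p = 0.0058), the smallest fold among the members that passed, and its groups did not overlap. Cebpd, an acute-phase member induced by cytokines, had 230, 225, 207 and 227 in bone marrow replicates 1 to 4, against 149.9, 129, 145 and 152 in spleen replicates 1 to 4, and rose 1.55-fold (0.63 ± 0.08, limma adjusted p = 8.7e-05). Its bone marrow arrays were the tightest of any member, with an SD of 0.07 in bone marrow and 0.11 in spleen on the log2 scale, and the groups did not overlap.

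Of the other C/EBP genes, 3 of 4 listed were measured, and all 3 rose. Cebpe, the factor of late neutrophil maturation, had 274 to 378 in bone marrow and 220.5 to 248 in spleen (log2 fold change 0.45, limma adjusted p = 0.0051). Cebpg and Ddit3, a widely expressed partner and a stress-induced inhibitor of the family, had log2 fold changes of 0.45 and 0.52. Whether the 3 member genes moved unequally was tested on their ratios within an array. The ratio of Cebpa to Cebpb differed by 0.36 on the log2 scale, that of Cebpa to Cebpd by 0.22 and that of Cebpb to Cebpd by -0.14 (exact permutation p = 0.17, 0.086 and 0.34, and adjusted p = 0.27, 0.17 and 0.46), so none passed, which does not show that they changed alike. Of 12 genes commonly linked to C/EBP factors 11 rose, none fell and 1 did not pass (median log2 fold change 2.73). These are mainly granule genes, and 9 of the 12 also stand in another of the lists. Ngp, Lcn2 and Ltf, which encode granule proteins of neutrophils, had log2 fold changes of 5.08, 4.40 and 4.33, while Il1b, a cytokine, had intensities of 2256 to 2631 in bone marrow and 2273 to 2864 in spleen (-0.05, limma adjusted p = 0.82). The neutrophil genes given above rose in the same arrays, and their part in the C/EBP values was not tested.

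**Figure D2:**
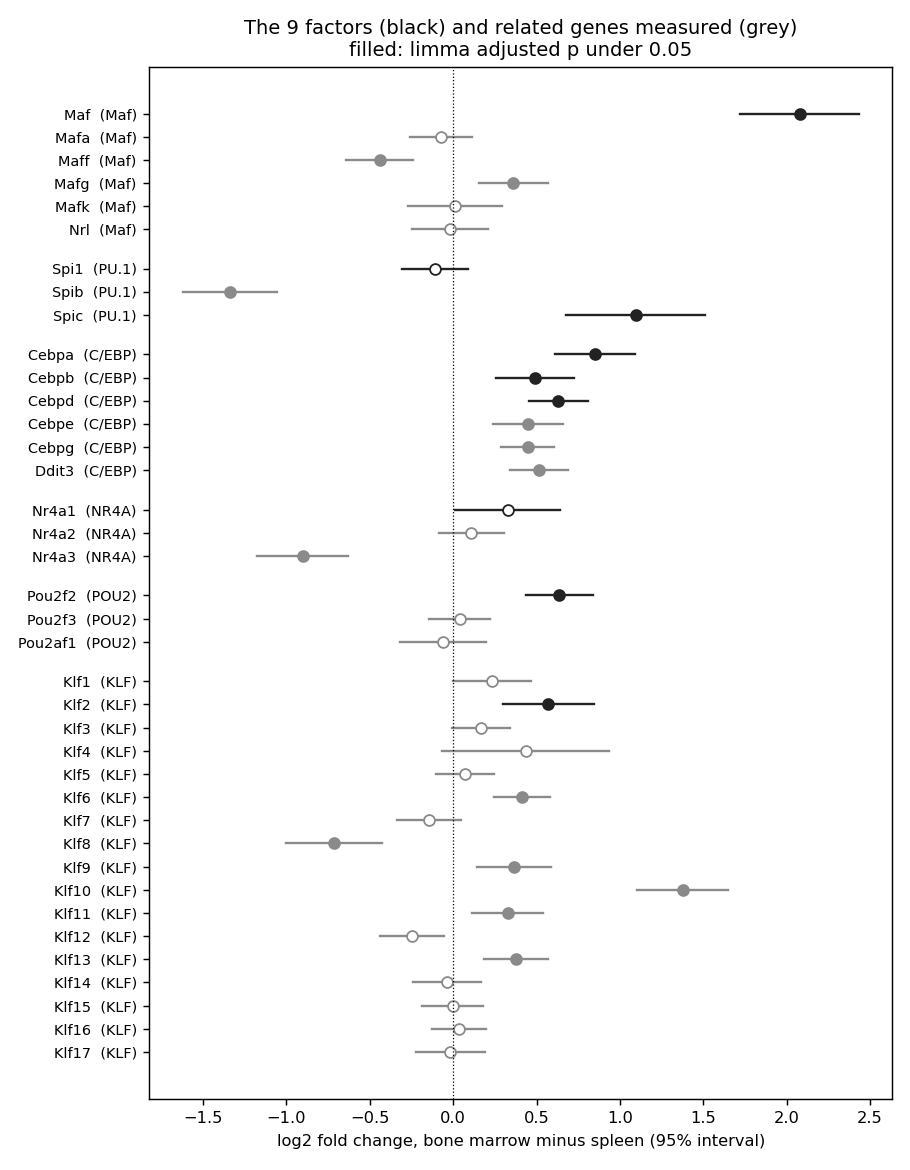
Log2 fold change (bone marrow minus spleen) with its 95% interval for the 9 factors (black) and the related genes measured (grey), ordered by family, filled where limma's adjusted p is under 0.05. The C/EBP genes all lie right of 0, whereas the PU.1, NR4A and KLF families hold genes on both sides.

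Nr4a1, the orphan nuclear receptor that non-classical monocytes require, did not pass. Its intensities were 2049, 2380, 2047 and 3333 in bone marrow replicates 1 to 4, against 2203, 1673, 1867 and 1954 in spleen replicates 1 to 4. Bone marrow replicate 4 was the highest of the 8 arrays, and the other bone marrow arrays lay among or near the spleen arrays. The log2 fold change was 0.33 ± 0.15 SE (4 arrays per tissue, limma adjusted p = 0.17), with a 95% interval of 0.01 to 0.64. Without bone marrow replicate 4 it was 0.17 (limma adjusted p = 0.39). Nr4a3, a paralog induced by activation, fell 1.87-fold, with 86.1, 88.6, 70.6 and 115 in bone marrow replicates 1 to 4, against 161, 153, 168 and 183 in spleen replicates 1 to 4 (-0.90 ± 0.13, limma adjusted p = 0.00018). Nr4a2 had 105 to 124 in bone marrow and 94.1 to 116 in spleen (0.11, limma adjusted p = 0.54). The log2 ratio of Nr4a1 to Nr4a3 was higher in every bone marrow array than in any spleen array (difference 1.23, exact permutation p = 0.029, adjusted p = 0.076). Genes of this kind are known to respond quickly to activation and handling. Of 21 other immediate early genes measured, 5 rose, 4 fell and 12 did not pass (summed intensity 25501 to 27739 in bone marrow, 19129 to 28342 in spleen). Atf3, Fosl2 and Fos had log2 fold changes of 2.12, 1.47 and 1.06, and Gadd45b, Ier3 and Dusp2 had -1.09, -0.64 and -0.61. Spleen arrays stood apart for these genes: replicates 1 and 3 were the highest spleen arrays for 10 and 8 of the 21, and replicates 2 and 4 the lowest for 11 and 8. Hspa1a, a heat shock gene, had 3402, 1819, 3982 and 1209 in bone marrow replicates 1 to 4, against 3994, 1503, 4592 and 836 in spleen replicates 1 to 4, and was thus higher in replicates 1 and 3 in both tissues. Fosb had 618, 825, 643 and 866 in bone marrow replicates 1 to 4, against 1234, 498, 1221 and 435 in spleen replicates 1 to 4, and showed that split in spleen, whereas its bone marrow replicates 2 and 4 were the higher ones. The Nr4a1 difference between same-numbered arrays, bone marrow minus spleen, was -0.10, 0.51, 0.13 and 0.77 on the log2 scale for replicates 1 to 4, larger in replicates 2 and 4. The part of these genes in the Nr4a1, Cebpb and Klf2 values was not tested.

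Pou2f2 rose 1.56-fold, with intensities of 576, 564, 642 and 706 in bone marrow replicates 1 to 4, against 395, 379, 383 and 439 in spleen replicates 1 to 4 (log2 fold change 0.64 ± 0.09 SE, 4 arrays per tissue, limma adjusted p = 0.00023). All bone marrow arrays lay above all spleen arrays. Of 10 B cell genes in the same arrays 6 fell: Cd22 and Ms4a1, surface proteins of mature B cells, had log2 fold changes of -2.35 and -2.04, although Vpreb1 and Rag1, genes of developing B cells, had 1.21 and 0.79. Pou2af1, the B cell coactivator that binds Oct-2, had 113 to 164 in bone marrow and 127 to 170.1 in spleen (-0.06, limma adjusted p = 0.85), and Pou2f3, the paralog of tuft cells, had a log2 fold change of 0.04. Pou2f1 is not analysed here. Of 14 non-classical monocyte genes, Pou2f2 and Nr4a1 not counted, 12 rose (median log2 fold change 1.47). Fabp4, Apoe and Fcgr4, which encode a fatty acid carrier, an apolipoprotein and a receptor of immunoglobulin G, had log2 fold changes of 2.58, 2.44 and 2.23.

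Klf2 rose 1.49-fold, with intensities of 363, 411, 359 and 526 in bone marrow replicates 1 to 4, against 244, 261, 286 and 317 in spleen replicates 1 to 4 (log2 fold change 0.57 ± 0.13 SE, 4 arrays per tissue, limma adjusted p = 0.0055). Bone marrow replicate 4 was again the highest, and the groups did not overlap. Without it the log2 fold change was 0.45 (limma adjusted p = 0.01). Of the 16 other KLF genes measured 5 rose, 1 fell and 10 did not pass (median log2 fold change 0.12). Klf10, an inducible factor of the TGF-beta response, showed the largest fold of the family, with 571, 471, 508 and 525 in bone marrow replicates 1 to 4, against 257, 159, 194 and 199.5 in spleen replicates 1 to 4 (1.38 ± 0.13, limma adjusted p = 4.5e-06). Klf6, an inducible factor of inflammatory macrophages, had 1567 to 1716 in bone marrow and 1127 to 1291 in spleen (0.41, limma adjusted p = 0.0019). Klf13 had a log2 fold change of 0.38. Klf9 and Klf11 had 0.36 and 0.33 (limma adjusted p = 0.025 and 0.036), calls lost for Klf9 on leaving out bone marrow array 1, bone marrow array 4, spleen array 2 or spleen array 3 (adjusted p between 0.066 and 0.081) and for Klf11 on leaving out bone marrow array 1, bone marrow array 3, spleen array 2 or spleen array 4 (adjusted p between 0.083 and 0.12). Klf8 fell, with 91.4 to 146 in bone marrow and 169 to 211 in spleen (-0.72, limma adjusted p = 0.0016). Klf4, the KLF of inflammatory and patrolling monocytes, had 357, 543, 292 and 773 in bone marrow replicates 1 to 4, against 367, 332, 341 and 315 in spleen replicates 1 to 4 (0.44 ± 0.23, limma adjusted p = 0.27). Klf4 bone marrow arrays spanned more than 2-fold and overlapped the spleen arrays, and without bone marrow replicate 3 it passed (limma adjusted p = 0.045). The other KLF genes that did not pass were Klf1, Klf3, Klf5, Klf7, Klf12, Klf14, Klf15, Klf16 and Klf17, with log2 fold changes between -0.25 for Klf12 and 0.23 for Klf1.

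Genes commonly linked to Klf2 did not move one way: of 7 measured, 2 rose, 2 fell and 3 did not pass (median log2 fold change 0.16). Thbd, the anticoagulant thrombomodulin, rose (546 to 922 in bone marrow, 129 to 223 in spleen, 1.99 ± 0.18 SE on the log2 scale, limma adjusted p = 5e-06). S1pr1, the sphingosine 1-phosphate receptor that lets lymphocytes leave tissues, fell (107 to 127 in bone marrow, 196 to 261 in spleen, -0.90 ± 0.10, limma adjusted p = 3.4e-05). Il6ra and Cd55, an interleukin receptor chain and a complement inhibitor, had log2 fold changes of 0.48 and -0.47 (limma adjusted p = 0.026 and 0.0499). The Il6ra call was lost on leaving out bone marrow array 3, bone marrow array 4, spleen array 2 or spleen array 4 (limma adjusted p between 0.052 and 0.079). The Cd55 call was lost on leaving out any array but bone marrow array 2 and spleen array 1 (limma adjusted p between 0.068 and 0.15). Cd55 also failed with quantile normalization (0.092), median centring (0.091), array weights (0.083) or log2(intensity + 32) (0.11). Its intensities were 27.5 to 44.7 in bone marrow and 37.3 to 54.1 in spleen, under the array medians of 125 to 135.

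Promoter windows (build GRCm38.p6) were at hand for 6 of 9 members: Cebpa, Cebpb, Klf2, Nr4a1, Pou2f2 and Spic. The starts used for Nr4a1 and Pou2f2 lie inside the annotated genes, which span chr15:101253902-101274795 and chr7:25087350-25180797. Other starts of these genes were not read. Each window searched holds 250 bases before the start and 50 after it, and the 250 bases before the start are printed. Klf2, Cebpb and Nr4a1 are shown because their windows hold motifs of inducible transcription, which the choice of genes did not use. They lie at chr8:72318812-72319061, chr2:167688665-167688914 and chr15:101266596-101266845, all on the plus strand. Capitals mark the short cyclic AMP response motif TGACG on either strand and, in Klf2, also the MEF2 core (CTA and TAG with 4 bases between them) and the KLF box CCCACCC.
Klf2: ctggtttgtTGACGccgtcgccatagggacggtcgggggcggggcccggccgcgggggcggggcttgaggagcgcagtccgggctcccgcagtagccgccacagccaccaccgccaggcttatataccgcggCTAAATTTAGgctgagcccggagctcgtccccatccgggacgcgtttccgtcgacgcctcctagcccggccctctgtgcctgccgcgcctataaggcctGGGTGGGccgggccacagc
Cebpb: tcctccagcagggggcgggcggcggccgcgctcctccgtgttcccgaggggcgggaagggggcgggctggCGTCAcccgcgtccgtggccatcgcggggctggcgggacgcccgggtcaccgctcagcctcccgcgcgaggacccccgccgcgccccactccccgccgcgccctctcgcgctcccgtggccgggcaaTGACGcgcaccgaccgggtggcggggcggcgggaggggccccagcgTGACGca
Nr4a1: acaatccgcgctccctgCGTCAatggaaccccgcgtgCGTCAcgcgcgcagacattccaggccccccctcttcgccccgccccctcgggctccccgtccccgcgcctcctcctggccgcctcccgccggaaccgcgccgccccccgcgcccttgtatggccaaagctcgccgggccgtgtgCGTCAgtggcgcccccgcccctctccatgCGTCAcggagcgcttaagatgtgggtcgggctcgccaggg
The short motif TGACG stood at 4 places in the Nr4a1 window, 233, 213, 69 and 40 bases before the start, and at 3 places in the Cebpb window, 180, 53 and 7 bases before the start. Klf2 held 1 such site 241 bases before the start. Of 32851 promoter windows of the same length 20.8% held at least 1 such motif, 1.03% held 3 or more and 0.231% held 4 or more. Those windows were not matched for G and C content. Its median was 52.7% over all promoters, against 72.3% for Nr4a1, 80.7% for Cebpb and 69.3% for Klf2. The motif itself holds a C next to a G, and its share among windows of like content was not tested. Klf2 also held a MEF2 core 118 bases before the start, a motif found in 3.69% of windows, and a KLF box on the opposite strand 19 bases before it, found in 17.5% of windows. Mef2a, a factor that binds the MEF2 core, had intensities of 3009 to 3181 in bone marrow and 1516 to 2117 in spleen (0.78 ± 0.10 SE on the log2 scale, limma adjusted p = 9e-05). Mef2c, the other MEF2 gene listed, had 949 to 1266 in bone marrow and 975 to 1251 in spleen (-0.10, limma adjusted p = 0.67). The part of either gene in the Klf2 value was not tested. Cebpa held 1 KLF box 242 bases before its start. The other letters searched on both strands were GAGGAAG for PU.1 (13.6% of windows), TTGCNNAA for C/EBP (10.8%), TGCTGAC for Maf (4.67%), TGCAAAT for octamer factors (4.02%), AAGGTCA for NR4A receptors (4.72%) and the full response element core TGACGTC (3.21%), which overlaps the short motif. None of these was found in the 6 windows, and the windows of Pou2f2 and Spic held no match to any motif searched. The motif TGACG and the MEF2 core were added to the search after the sequences had been seen. A match is a description of the letters, not of binding, and no match says only that these letters are not in this window. G and C made up 80.7% of the Cebpb window and 45% of the Spic window, the highest and lowest of the 6.

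Other myeloid transcription factors showed both directions. Of 31 measured, 14 rose, 3 fell and 14 did not pass, with a median log2 fold change of 0.18. Pparg, the lipid-sensing nuclear receptor of tissue macrophages, had 884, 1151, 1119 and 1167 in bone marrow replicates 1 to 4, against 177, 149, 143 and 201 in spleen replicates 1 to 4 (2.69 ± 0.12 SE, 4 arrays per tissue, limma adjusted p = 9.5e-09). Nr1h3, the oxysterol receptor LXR alpha, which with Spic serves splenic macrophages in mice, had a log2 fold change of 1.81, and Mitf, a factor of lysosomal genes, had 1.64. Bach1, the heme-sensing repressor that acts on Hmox1 and, in mouse macrophages, on Spic, rose too (904 to 1041 in bone marrow, 586 to 697 in spleen, 0.58, limma adjusted p = 0.00027). The 3 that fell were Id2, a dendritic cell factor, Bhlhe40 and Etv3, with log2 fold changes of -1.75, -0.96 and -0.36. Irf8, needed by monocytes and by cDC1 dendritic cells, had 2151 to 2775 in bone marrow and 2026 to 2869 in spleen (-0.06, limma adjusted p = 0.86).

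**Figure D3:**
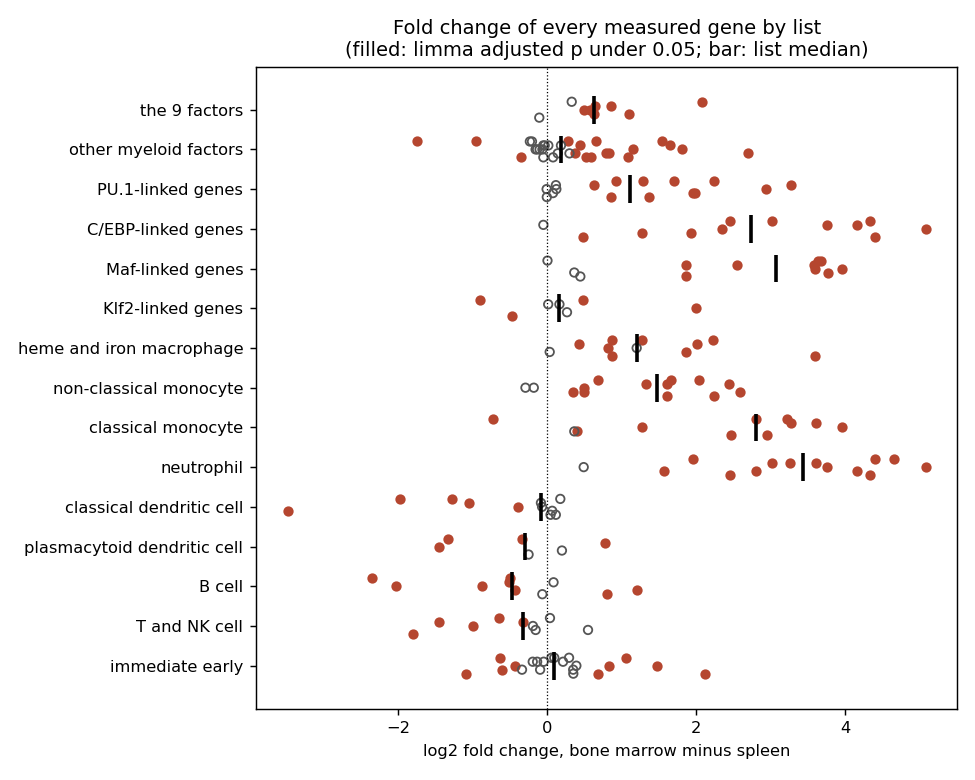
Log2 fold change (bone marrow minus spleen) of every measured gene in the 9 factors, the lists linked to them and the cell type marker lists, with 1 point per gene, filled where limma's adjusted p is under 0.05, and a bar at the list median. The 9 factors have a median of 0.63, between the KLF2-linked genes at 0.16 and the neutrophil genes at 3.44.

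Bone marrow arrays differed among themselves along 2 sets of members. Spic, Maf and the heme and iron genes were high in replicate 2 and low in replicate 4. Relative to the bone marrow mean, Spic deviated by 0.71 in replicate 2 and -0.31 in replicate 4 on the log2 scale, Maf by 0.36 and -0.50, Slc40a1 by 1.81 and -1.14, and Mertk, a receptor of dying cells, by 0.99 and -1.11. Replicate 2 was the highest bone marrow array for 10 of 11 heme and iron genes and 9 of 12 Maf-linked genes, and the lowest for 11 of 14 neutrophil genes. Nr4a1, Klf2 and Pou2f2 were highest in replicate 4 instead, where they deviated by 0.47, 0.36 and 0.19. Replicate 4 was also the highest bone marrow array for 10 of 14 non-classical monocyte genes, for Klf4 (0.76) and for Spn, which encodes CD43 (0.38). That rank was not particular to these genes. It held for 5 of 7 Klf2-linked, 6 of 11 classical monocyte, 8 of 16 PU.1-linked and 15 of 31 other myeloid factor genes. It held for 0 of 12 Maf-linked and 0 of 11 heme and iron genes, and the share over all genes was not counted. Among the C/EBP members the widest bone marrow deviation was -0.17, that of Cebpa in replicate 3. In spleen replicate 2, Spic deviated by 0.03, Maf by -0.10, Slc40a1 by -0.20 and Mertk by 0.12. In spleen replicate 4, Klf2 (0.20), Pou2f2 (0.14) and Spn (0.30) were again the highest of their tissue, whereas Nr4a1 (0.03) and Klf4 (-0.10) were not. That array was the highest spleen array for 7 of 14 non-classical monocyte genes, and it was also the highest for Spic (0.19) and Maf (0.17). The genes named in this comparison of arrays were picked after their values were seen, and 4 arrays give no test of it.

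**Figure D4:**
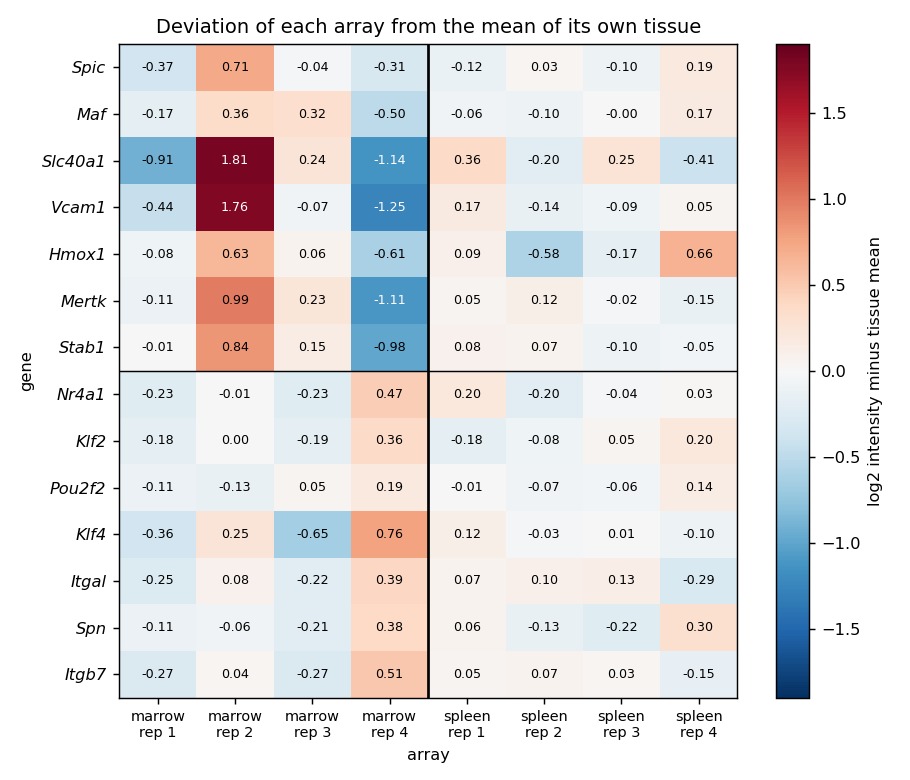
Log2 intensity of 14 genes minus the mean of the same tissue, for 4 bone marrow arrays (left of the line) and 4 spleen arrays (right). The upper genes, with Spic and Maf, are highest in bone marrow replicate 2 and low in replicate 4, and the lower genes, with Nr4a1, Klf2 and Pou2f2, are highest in bone marrow replicate 4.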

How the data were processed

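The authors deposited linear intensities per probe set, and the submitters' processing notes name Affymetrix Expression Console 1.4. The steps of background correction, normalization and summarization are unstated in the sources used here, and the array medians were 125 to 135 in bone marrow and 129 to 135 in spleen. No detection calls were used, so it is unknown which dim genes lay above background, and the number of arrays limits the precision. Of 35556 probe sets 21789 name 1 gene, 1621 several and 12146 none in the platform annotation, and 19938 genes were tested.

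Intensities as deposited were taken to log2 with no further normalization, the brightest single-gene probe set was kept per gene, and bone marrow was set against spleen with lmFit and eBayes of limma 3.58.1 in R 4.3.3, 4 arrays against 4, with Benjamini-Hochberg adjustment over all genes. The fitting script was tested on simulated data. Ratios of gene pairs were compared with exact two-sided permutation tests (scipy 1.17.1, Python 3.11.15). Neither the main limma fit nor the main ratio tests paired the arrays by mouse. The text names all 9 factors, their family genes, up to 3 genes per direction with the largest folds in each list, and the 3 genes nearest to Maf and to Spi1, which had the largest rise and the lowest fold change. Further genes (Slc40a1, Vcam1, Mertk, Spn, Mef2a, Bach1, Irf8, Csf1r, Itgax, H2-Ab1, Flt3, Fosb, Hspa1a and members of lists that did not pass) were named once their values had been seen. The factors and the gene lists were chosen with earlier results of these data known. The alternatives were quantile normalization, median centring, leaving out the dimmest 40% of genes, the mean of a gene's probe sets, log2(intensity + 32), an intensity trend, array weights, the mouse as a replicate block and leaving out each array. Same-numbered bone marrow and spleen arrays were taken as the same mouse, since the labels' sample descriptions give both the same number. The correlation of same-mouse deviations from the tissue means over all genes was 0.10, -0.09, -0.18 and -0.05 for mice 1 to 4.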

Additional observations from a re-analysis of the deposited data

Results flagged for a closer look

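In 6 of 184 groups of 4 arrays examined among the named genes, 1 array lay far from the other 3, and chance alone gives about 1 in 20. Spi1 was lowest in spleen replicate 4 at 2744, against 3027 to 3057 in the other spleen arrays. Maff was highest in spleen replicate 4 at 216, against 184 to 186, and Ddit3 was highest there too, at 495 against 418 to 429.5. S100a8, a neutrophil and monocyte gene, was lowest in spleen replicate 4 at 117, against 191 to 202. In bone marrow, Pparg was lowest in replicate 1 at 884, against 1119 to 1167 in the other bone marrow arrays, and Fcgr1 was lowest in replicate 1 at 969, against 1379 to 1421.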

How the results depend on the processing

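All 9 factors kept their direction and their side of the threshold under each of the 16 alternatives, so that 7 passed in every one. The log2 fold change of Maf ran from 1.96 to 2.25 when 1 array was left out, that of Spic from 0.86 to 1.22, that of Klf2 from 0.45 to 0.64 and that of Nr4a1 from 0.17 to 0.40. With the mouse as a replicate block, 3378 genes passed over all genes, against 3681 without it, and 7 of the 9 factors still did (limma adjusted p of Klf2 0.0016). The block ended the calls of Irf5 and Stat6 (0.054 and 0.060), and it added Gas6, Vcam1, Vcan, Mmp9 and Jund (0.033, 0.047, 0.034, 0.033 and 0.047). Over all alternatives the number of genes that passed ran from 3144 to 3991. Of 203 other listed or named genes 13 lost a call and 10 gained one under some alternative. None changed direction where it passed in the main fit or in that alternative. Changes of direction in genes that passed in neither were not counted. Slc40a1 was the 1 listed gene past the threshold whose fold moved by more than 1.5 times with a single array, as given above. Ratios cannot reach p under 0.05 with an array left out, where the smallest exact p is 0.057, or with mice paired, where it is 0.125. Dim genes cannot be told from background here.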
